A study of Mus musculus with 8 samples.

Results

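Transcripts of the glycine receptor and of the transporters that set chloride in neurons were examined in tdTomato-labelled cells of the mouse cochlear nucleus, with and without conditional alleles of the transcription factor genes Hoxa2 and Hoxb2. The set holds 8 genes chosen by symbol, out of 39017 genes in the deposited count table. They are the glycine receptor alpha subunits Glra1, Glra2, Glra3 and Glra4, the beta subunit Glrb, the scaffold gene Gphn and the chloride cotransporters Slc12a2 and Slc12a5. All 8 were found, 1 row each, and all 8 passed the filter on low counts.

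Mutant embryos were Hoxa2+/fl and Hoxb2fl/fl by the sample titles, while the design text gives both floxed alleles as homozygous. Wild type embryos had no floxed Hox allele, and embryos of both groups carried the driver Math1::Cre and the reporter Rosa tdTomato. Strain was C57BL/6 and stage E18.5 throughout, with 4 libraries per group. Each library came from 30000 sorted cells of 3 pooled littermates, with a different mother for every library. Cre was driven by Math1, a gene of the rhombic lip, so that only descendants of Math1-expressing cells should carry the label. Libraries are called by group and column number, mutant 1 to 4 and wild type 5 to 8.

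Glycine receptors are chloride channels opened by glycine, the main fast inhibitory transmitter of brainstem and spinal cord besides GABA. In the rodent brainstem the alpha subunit made by immature neurons is Glra2, and Glra1 takes its place as circuits mature, while Glrb tethers the channel to gephyrin at the synapse. Whether opening the channel excites or inhibits a cell depends on internal chloride, which the importer NKCC1 (Slc12a2) raises and the neuronal extruder KCC2 (Slc12a5) lowers. Slc12a5 rises as neurons mature.

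Total counts ran from 26299105 to 51118195 in mutant and from 24789043 to 40050010 in wild type libraries. Hoxb2 fell to 5.02 ± 1.49 CPM (read counts scaled by TMM to a common library total; SD, n = 4) in mutant libraries, against 40.1 ± 4.41 CPM (SD, n = 4) in wild type libraries (edgeR adjusted p = 3.76e-05). Hoxa2 stood at 26.7 ± 15.7 CPM in mutant and 43.2 ± 10.99 CPM in wild type libraries (SD, n = 4 each) and did not pass (edgeR adjusted p = 0.506). The 8 excitatory neuron markers summed to 1192 to 1482 CPM in mutant and 1626 to 1690 CPM in wild type libraries, without overlap, and 7 of the 8 had a negative fold change. Of these, the bHLH transcription factor gene Nhlh1 fell, at 46.3 ± 6.86 CPM in mutant and 89.2 ± 5.61 CPM in wild type libraries (SD, n = 4 each; adjusted p = 0.00603 by edgeR). The homeobox gene Barhl2 stood at 50.3 to 89.3 CPM in mutant and 94.2 to 122 CPM in wild type libraries and did not pass (log2 difference -0.67, adjusted p = 0.123 by edgeR). It passed without mutant 1 (-0.81, adjusted p = 0.0171 by edgeR) and by DESeq2 (adjusted p = 0.0229). In those fits 544 and 489 genes passed, beside 70 in the reported edgeR fit. Over 18 alternatives the adjusted p of Barhl2 ran up to 0.383. The glutamate transporter Slc17a6 was at 396 to 569 CPM in mutant and 501 to 673 CPM in wild type libraries, and Barhl1 at 352 to 535 CPM in mutant and 506 to 541 CPM in wild type libraries. Of 6 microglia markers, the complement gene C1qa fell, at 0.203 ± 0.104 CPM in mutant and 2.36 ± 1.19 CPM in wild type libraries (SD, n = 4 each; adjusted p = 0.0115 by edgeR). The 6 summed to 10.8 to 16.6 CPM in mutant and 14.7 to 20.5 CPM in wild type libraries. The largest part of that sum was Csf1r, at 9.81 to 15.2 CPM in mutant and 10.1 to 11.6 CPM in wild type libraries (log2 difference 0.07). P2ry12 (-2.03, edgeR adjusted p = 0.09) and Cx3cr1 (-2.41, edgeR adjusted p = 0.186) were lower in mutants but did not pass. Aif1 and Tyrobp had too few counts to be tested. C1qa no longer passed without mutant 2 (adjusted p = 0.0525), without mutant 4 (adjusted p = 0.0527) or by limma-voom (adjusted p = 0.0749). The part of these cell markers in the levels below was not tested.

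Of 19494 genes tested, 0.359% passed in either direction (edgeR adjusted p below 0.05), and the median log2 fold change was -0.01.

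No member passed that threshold, 0 of 8 beside the 0.359% of all genes, and 0 were called by DESeq2 or by limma-voom, whether unweighted or weighted by library quality. Before adjustment, 2 members had an edgeR p below 0.05, Glra2 and Slc12a5, both higher in mutants, beside 12.5% of all genes. The median log2 fold change of the 8 was 0.22, and 5 of the 8 were above 0, as were 48.4% of all tested genes. In none of the 8 did the CPM of mutant and wild type libraries separate completely, which happened for 6.17% of tested genes.

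**Figure D1:**
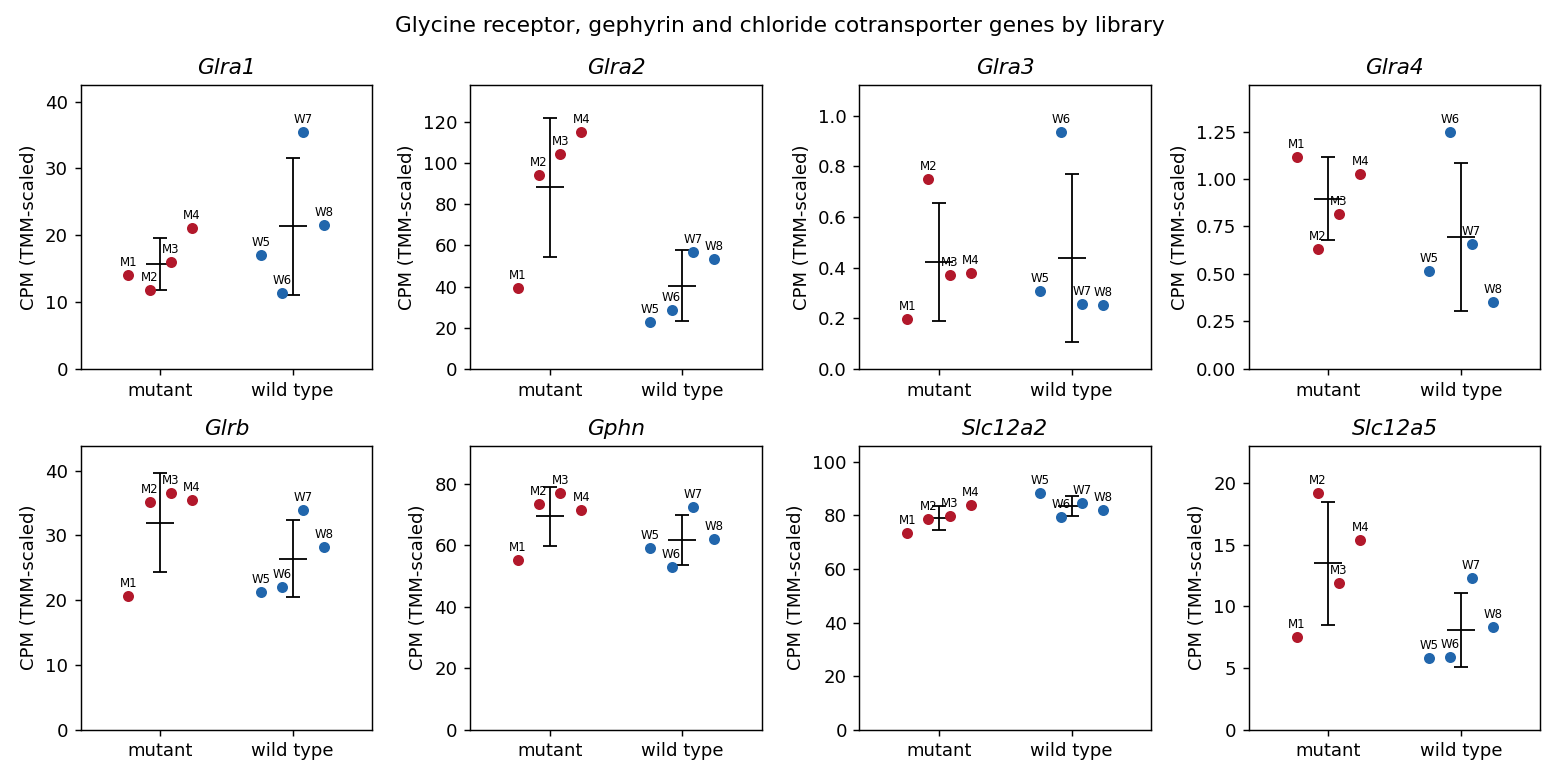
TMM-scaled CPM of each gene in each library (points; M1 to M4 are mutant, W5 to W8 wild type), with the mean (long tick) and SD (bars, n = 4 each). For Glra2 and Slc12a5 mutant 1 lies among the wild type libraries, and no gene separates the groups completely.

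Glra2, the alpha subunit typical of immature neurons, had the largest fold change of the set. It was at 39.2, 94.3, 104 and 115 CPM in mutant 1 to 4, against 22.7, 28.6, 56.8 and 53.4 CPM in wild type 5 to 8. Mutant 2, 3 and 4 lay above all wild type libraries, and mutant 1 lay between wild type 6 and wild type 8. The group means were 88.2 ± 33.8 CPM in mutant and 40.4 ± 17.2 CPM in wild type libraries (SD, n = 4 each). The log2 fold change was 1.13 (SE 0.394) and did not pass over all genes (edgeR adjusted p = 0.304). In bulk RNA of this kind, a different share of cells of a type and a different RNA level per cell cannot be told apart.

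Mutant 1, wild type 5 and wild type 6, which held the lowest Glra2 level of each group, also had the highest level of markers of dividing cells. The 6 cycling markers (Mki67, Top2a, Ccnb1, Cdk1, Pcna and Mcm2) summed to 745, 416, 319 and 252 CPM in mutant 1 to 4, against 1012.5, 1004, 309.8 and 459.9 CPM in wild type 5 to 8. Markers of maturing neurons, 8 genes, had their lowest sums in the same 3 libraries. The sums were 771 CPM in mutant 1, 777 CPM in wild type 5 and 754 CPM in wild type 6, and 991 to 1167 CPM in the other 5. Snap25, Syt1, Syn1 and Vamp2 were each lowest in these 3 libraries, while Rbfox3, Nefl, Nefm and Camk2b were not. Without overlap between groups, Rbfox3 (log2 difference 0.39) and Camk2b (1.13) were higher and Nefm (-1.07) lower in mutants. Their edgeR adjusted p were 0.255, 0.147 and 0.146, and 6.17% of all tested genes had no overlap. The 6 markers of young neurons were also lowest in sum in these 3 libraries, though Sox11 and Neurod1 were not. They summed to 5451 CPM in mutant 1, 5504 CPM in wild type 5 and 5428 CPM in wild type 6. In the other 5 libraries the sum was 6778 to 8361 CPM. None of the cycling, maturing or young markers was at 0, and none passed between groups. The part of these markers in the Glra2 level was not tested.

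Without these 3 libraries Glra2 passed, with a log2 difference of 0.93 (SE 0.141; adjusted p = 0.0136 by edgeR), from 3 mutant and 2 wild type libraries. In that fit 0.849% of 20153 genes passed, 0.471% as higher in mutants, and Glra2 was the only member that did. The choice of the 3 libraries came from an earlier look at these data, and they hold the lowest Glra2 levels of their groups. Leaving them out took the SE from 0.394 to 0.141, so this p cannot serve as a test of Glra2. Over the 18 alternatives the adjusted p of Glra2 ran up to 0.657 and its fold change stayed between 0.92 and 1.37 on the log2 scale.

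**Figure D2:**
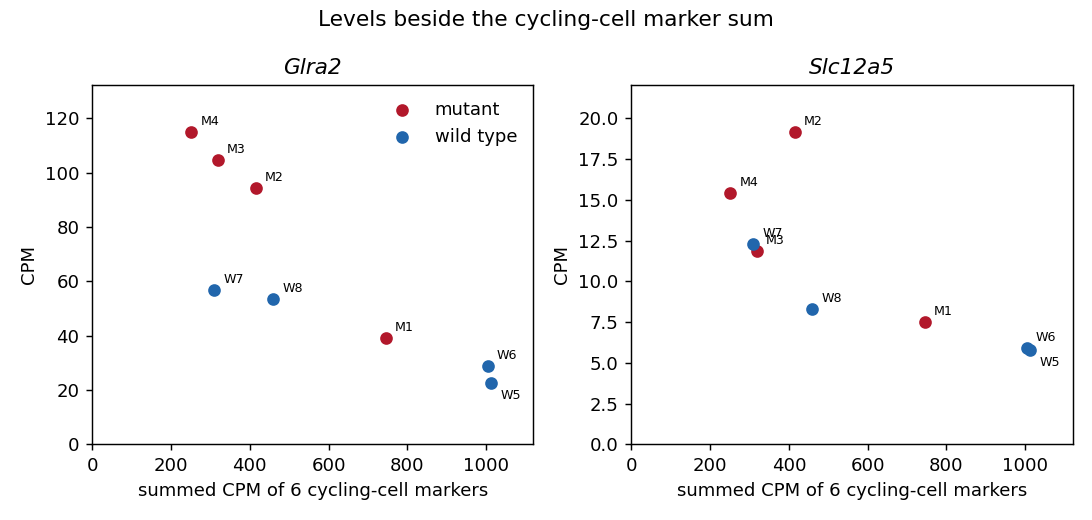
CPM of Glra2 (left) and Slc12a5 (right) against the summed CPM of 6 markers of dividing cells, 1 point per library. Libraries with a marker sum above 700 are mutant 1, wild type 5 and wild type 6, and they hold the lowest levels of both genes within their group.

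Glra1, the subunit of mature glycinergic synapses, was at 14.1, 11.9, 16.0 and 21.0 CPM in mutant 1 to 4, against 17.0, 11.4, 35.4 and 21.5 CPM in wild type 5 to 8. The groups overlapped, and wild type 7 alone stood above 22 CPM. The log2 fold change was -0.44 (SE 0.311, edgeR adjusted p = 0.584), and -0.08 without wild type 7. The antisense gene Gm12236 shares 141 exonic bases with Glra1, and its 15 to 70 counts per library stand beside 292 to 1238 counts for Glra1.

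Glra3 and Glra4, the remaining alpha subunits, were near the detection limit. Glra3 had 6, 19, 19 and 14 counts in mutant 1 to 4, and 12, 24, 9 and 10 counts in wild type 5 to 8. In mutant 1 the exact 95% interval (Clopper-Pearson, counting error only) was 0.0725 to 0.430 CPM without TMM scaling. Glra4 had 34, 16, 42 and 38 counts in mutant 1 to 4 and 20, 32, 23 and 14 counts in wild type 5 to 8. Both groups overlapped for both genes, with log2 fold changes of -0.03 (SE 0.562) for Glra3 and 0.40 (SE 0.408) for Glra4. The sign for Glra3 turned without mutant 1, mutant 3, mutant 4 or wild type 6, and no difference was detectable at this depth. BC065397, a gene on the opposite strand that overlaps Glra4 but shares 0 exonic bases with it, had 154 to 385 counts per library. The part of BC065397 in the Glra4 counts was not tested.

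Set per kilobase of the deposited gene width, so that genes can be compared, the alpha subunits were dominated by Glra2 and Glra1. The Glra2 share of the summed alpha level was 65.9%, 84.8%, 82.3% and 79.7% in mutant 1 to 4, against 49.4%, 62.1%, 54.5% and 65.0% in wild type 5 to 8. Glra1 made up 31.0%, 13.9%, 16.4% and 19.0% in the mutant libraries, against 48.4%, 32.2%, 44.3% and 34.1% in the wild type libraries. The Glra2 share was thus higher in 4 of 4 mutant libraries than in any wild type library, although mutant 1 and wild type 8 were close. In raw counts Glra2 took 71.7% of alpha counts in mutant 1 (exact 95% interval 69.5% to 73.9%) and 70.7% in wild type 8 (69.1% to 72.4%), intervals that overlap.

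The mean Glra2 share was 78.2% ± 8.46 in mutant and 57.8% ± 7.10 in wild type libraries (SD, n = 4 each), a difference of 20.4 percentage points. The exact two-sided permutation p was 0.0286, the smallest that 4 against 4 libraries allow, and 0.114 after Benjamini-Hochberg adjustment over the 4 within-library ratios compared, so it failed the correction. The share needs no scaling between libraries. Without mutant 1, wild type 5 and wild type 6 the difference was 22.5 percentage points, where 3 against 2 libraries cannot give an exact p below 0.2.

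**Figure D3:**
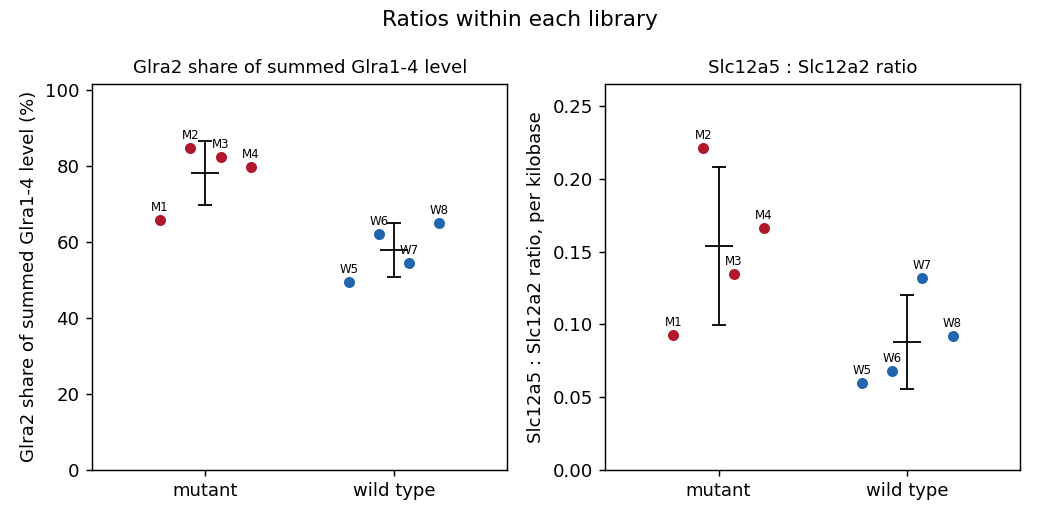
Left, Glra2 as a percent of the summed length-scaled level of Glra1 to Glra4. Right, the ratio of Slc12a5 to Slc12a2 per kilobase. Points are libraries, with mean and SD (n = 4 each). Mutant libraries lie at 65.9% and above on the left, wild type libraries at 65.0% and below, while the groups overlap on the right.

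Glrb, whose product joins alpha subunits in the synaptic receptor and binds gephyrin, differed less than Glra2. It was at 20.6, 35.2, 36.6 and 35.5 CPM in mutant 1 to 4, against 21.3, 22.1, 34.0 and 28.2 CPM in wild type 5 to 8. Mutant 1 was the lowest of all 8, and the other mutant libraries were the highest. The log2 fold change was 0.28 (SE 0.201, edgeR adjusted p = 0.588). The ratio of Glrb to the summed alpha level, per kilobase, was 0.283 ± 0.0404 in mutant and 0.381 ± 0.0750 in wild type libraries (SD, n = 4 each; log2 difference -0.42, exact two-sided permutation p = 0.0857, adjusted p = 0.114). By that measure transcripts of the alpha subunits exceeded those of the beta subunit in every library of both groups.

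Gphn, which encodes the scaffold gephyrin and also serves molybdenum cofactor synthesis, was at 55.4, 73.5, 77.0 and 71.6 CPM in mutant 1 to 4, against 59.2, 53.0, 72.6 and 62.2 CPM in wild type 5 to 8. The groups overlapped, with mutant 1 below 3 of the wild type libraries. The log2 fold change was 0.17 (SE 0.132, edgeR adjusted p = 0.617). The ratio of Gphn to Glrb per kilobase was 2.18 ± 0.304 in mutant and 2.34 ± 0.285 in wild type libraries (SD, n = 4 each; exact two-sided permutation p = 0.457, adjusted p = 0.457).

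Slc12a2, the chloride importer NKCC1, was the most even gene of the set. It was at 73.3, 78.7, 79.9 and 84.0 CPM in mutant 1 to 4, against 88.4, 79.6, 84.6 and 82.1 CPM in wild type 5 to 8. The log2 fold change was -0.08 (SE 0.0928, edgeR adjusted p = 0.729). Slc12a2 is also made by glia and choroid plexus. The 8 markers of radial glia and astrocytes summed to 198 to 476 CPM in mutant and 317 to 437 CPM in wild type libraries, and the 6 markers of choroid plexus and ependyma to 9.69 to 18.1 CPM in mutant and 8.88 to 14.4 CPM in wild type libraries. None of those markers was at 0. Aqp1 had too few counts to be tested, and none of the others passed.

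Slc12a5, the neuronal chloride extruder KCC2, was at 7.50, 19.2, 11.8 and 15.4 CPM in mutant 1 to 4, against 5.81, 5.92, 12.3 and 8.30 CPM in wild type 5 to 8. Mutant 2 and mutant 4 lay above all wild type libraries, and mutant 1 lay below wild type 7 and wild type 8. Means were 13.5 ± 4.99 CPM in mutant and 8.07 ± 3.02 CPM in wild type libraries (SD, n = 4 each). The log2 fold change of 0.74 (SE 0.308) did not pass (edgeR adjusted p = 0.365). The 3 libraries with the most cycling marker reads were again the lowest of their groups, and without them the fold change was 0.59 (adjusted p = 0.458).

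The ratio of Slc12a5 to Slc12a2 stood below 1 in every library. Per kilobase it was 0.0930, 0.221, 0.135 and 0.167 in mutant 1 to 4, against 0.0597, 0.0676, 0.132 and 0.0919 in wild type 5 to 8. Mutant 1 was within the range of the wild type libraries, mutant 3 just above it, and mutant 2 and mutant 4 farther above. The mean was 0.154 ± 0.0541 in mutant and 0.0877 ± 0.0324 in wild type libraries (SD, n = 4 each), a log2 difference of 0.81. The exact two-sided permutation p was 0.0571, and 0.114 adjusted over the 4 ratios. Without mutant 1, wild type 5 and wild type 6 the log2 difference was 0.63. In raw counts, with no length scaling, the ratios ran from 0.102 to 0.244 in mutant and from 0.0657 to 0.145 in wild type libraries, with the same log2 difference.

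The length-scaled levels put the 8 genes in an order that changed between groups at its top and for Glrb and Glra1. In mutant libraries the means per kilobase were 28.0 ± 10.7 CPM for Glra2, 20.4 ± 2.83 for Gphn, 12.1 ± 0.678 for Slc12a2, 9.58 ± 2.28 for Glrb and 6.52 ± 1.62 for Glra1 (SD, n = 4). Slc12a5 followed at 1.88 ± 0.695, Glra4 at 0.446 ± 0.108 and Glra3 at 0.0926 ± 0.0509 CPM per kilobase in mutant libraries. In wild type libraries the means per kilobase were 18.2 ± 2.41 CPM for Gphn, 12.8 ± 0.577 for Slc12a2, 12.8 ± 5.46 for Glra2, 8.83 ± 4.25 for Glra1 and 7.91 ± 1.78 for Glrb (SD, n = 4). Slc12a5 was at 1.13 ± 0.421, Glra4 at 0.345 ± 0.194 and Glra3 at 0.0960 ± 0.0726 CPM per kilobase in wild type libraries. Glra2 and Gphn and also Glrb and Glra1 in mutants, and Slc12a2, Glra2, Glra1 and Glrb in wild type, had overlapping ranges with their neighbours in the order, whereas Slc12a5 lay below Glrb and Glra1 in all 8 libraries.

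**Figure D4:**
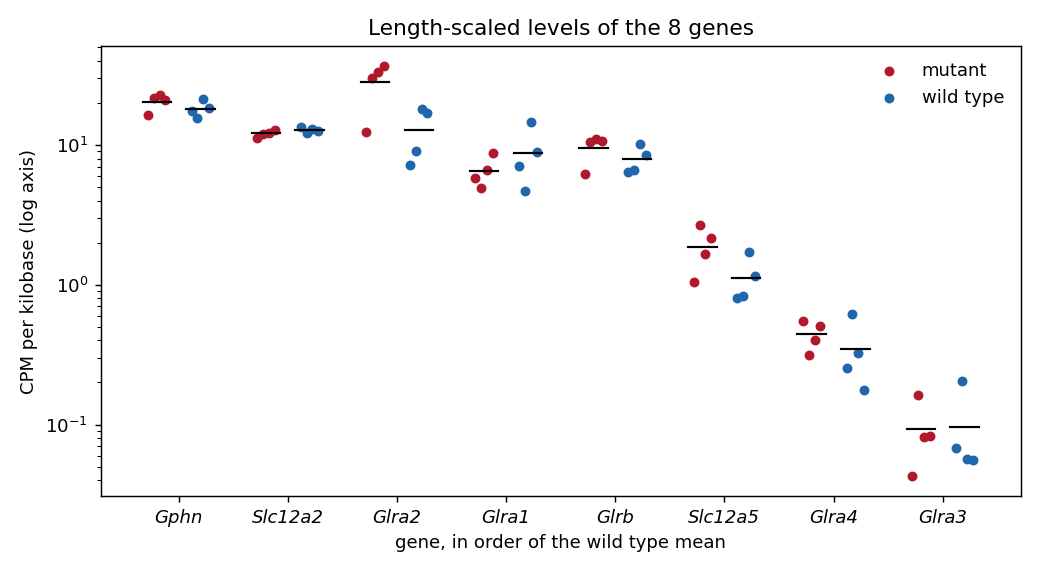
Level of each gene per kilobase of gene width (log axis), with 1 point per library and a line at the group mean, mutant left and wild type right for each gene. Gphn, Slc12a2, Glra2, Glra1 and Glrb lie within 1 order of magnitude, and Glra3 is the lowest, with means of 0.0926 CPM per kilobase in mutant and 0.0960 in wild type libraries.

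By the root mean square difference of centred log2 CPM over the 8 libraries, among 9468 genes whose average level reached 3 on the log2 CPM scale, the genes most like Slc12a5 were Rgs17 (0.119), Ppargc1a (0.125) and Rbfox1 (0.128), where Slc12a5 itself spanned 1.71 on the log2 scale. Most like Slc12a2 were Glcci1 (0.0389), Daglb (0.0448) and Chuk (0.0462), with a span of 0.27 for Slc12a2. Rgs17 encodes a regulator of G protein signalling, Ppargc1a a coactivator of mitochondrial genes and Rbfox1 a neuronal splicing factor.

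Around these genes, 50 others in 7 lists supply glycine, partner gephyrin or move chloride. Of 48 tested, 0 passed (edgeR), 8 had an unadjusted p below 0.05 (beside 12.5% of all genes) and 25 had a positive fold change, and 0 were called by DESeq2 or by either form of limma-voom. The median log2 fold change of the 48 was 0.03, beside -0.01 for all genes. Without mutant 1 alone, Slc4a10 (1.21, adjusted p = 0.0128) and Slc12a7 (-1.21, adjusted p = 0.0256) passed, in a fit where 2.7% of 20124 genes did, 544 in all.

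Of 9 genes of glycine supply and clearance, 4 had a positive fold change. Slc6a5, the plasma membrane glycine transporter of glycinergic neurons, was at 24.4, 34.4, 25.6 and 36.1 CPM in mutant 1 to 4, against 21.6, 8.80, 18.0 and 21.5 CPM in wild type 5 to 8. Its groups did not overlap, as for 6.17% of all tested genes. The log2 fold change of 0.78 (SE 0.255) did not pass (edgeR adjusted p = 0.266). Slc6a5 is also 1 of 8 markers of inhibitory neurons, which summed to 77.8 to 116 CPM in mutant and 65.9 to 92.8 CPM in wild type libraries. None was at 0, and none of those tested passed. Ptf1a had too few counts to be tested, with 3, 2, 9 and 4 in mutant 1 to 4, against 2, 11, 23 and 10 in wild type 5 to 8. Of the 7 of these markers tested, 6 had a positive fold change, beside 48.4% of all tested genes. The median of the 7 was 0.68 on the log2 scale. The GABA-synthesising enzyme Gad1 was at 9.17, 38.0, 19.9 and 33.1 CPM in mutant 1 to 4, against 5.60, 8.99, 11.6 and 19.0 CPM in wild type 5 to 8 (log2 difference 1.14, SE 0.483). The exception was the homeobox gene Lhx1, at 36.1, 12.7, 14.5 and 9.78 CPM in mutant 1 to 4, against 31.3, 61.0, 33.9 and 32.9 CPM in wild type 5 to 8 (log2 difference -1.12, SE 0.42, adjusted p = 0.333 by edgeR). Mutant 1 lay among the wild type libraries for Lhx1, and wild type 6 stood above the other 3. Without mutant 1, Lhx1 passed as lower (-1.68, adjusted p = 0.00738 by edgeR), in the fit where 2.7% of genes did. Over 18 alternatives the adjusted p of Lhx1 ran up to 0.621. The part of inhibitory neurons in the Slc6a5 level was not tested. Shmt2, the mitochondrial enzyme that converts serine to glycine, had -0.41 (SE 0.152).

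Among 10 gephyrin partners and proteins of the inhibitory postsynapse, 8 had a positive fold change, with a median of 0.25 on the log2 scale. The synaptic adhesion protein Slitrk3 had 0.95 (SE 0.368) and the receptor trafficking protein Gabarap 0.30 (SE 0.135), with edgeR adjusted p of 0.345 and 0.39. Of 4 tested genes of molybdenum cofactor synthesis and use, Mocs2 had 0.22 (SE 0.134) and Mocs3 0.32 (SE 0.269). The splicing factors Nova1 and Nova2, which in mouse act on transcripts of Glra2 and Gphn, had log2 fold changes of -0.03 (SE 0.123) and 0.00 (SE 0.133) to 2 decimals.

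Among 6 other Slc12 cotransporters tested, 2 had a positive fold change and the median was -0.34 on the log2 scale. The potassium chloride cotransporter Slc12a7 was at 10.3, 4.84, 5.17 and 4.70 CPM in mutant 1 to 4, against 13.5, 14.3, 6.64 and 11.0 CPM in wild type 5 to 8, a log2 difference of -0.86 (SE 0.3; adjusted p = 0.288 by edgeR). Mutant 1 again lay within the wild type range. Slc12a4 had -0.60 (SE 0.303).

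Of 8 kinases and adaptors that control the cotransporters by phosphorylation, 3 had a positive fold change. Wnk3 had 0.30 (SE 0.144) and Wnk4 -0.68 (SE 0.256), with edgeR adjusted p of 0.418 and 0.309. Among 9 genes of other chloride and bicarbonate routes, 6 had a positive fold change. The sodium-driven bicarbonate transporter Slc4a10 was at 5.76, 18.7, 12.8 and 15.8 CPM in mutant 1 to 4, against 5.60, 5.45, 9.10 and 7.16 CPM in wild type 5 to 8, a log2 difference of 0.96 (SE 0.315; adjusted p = 0.269 by edgeR). The late endosomal chloride transporter Clcn6 had -0.31 (SE 0.104, edgeR adjusted p = 0.273). Its groups did not overlap, at 45.8 to 57.2 CPM in mutant and 61.8 to 67.2 CPM in wild type libraries. Such separation was found for 6.17% of all tested genes.

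**Figure D5:**
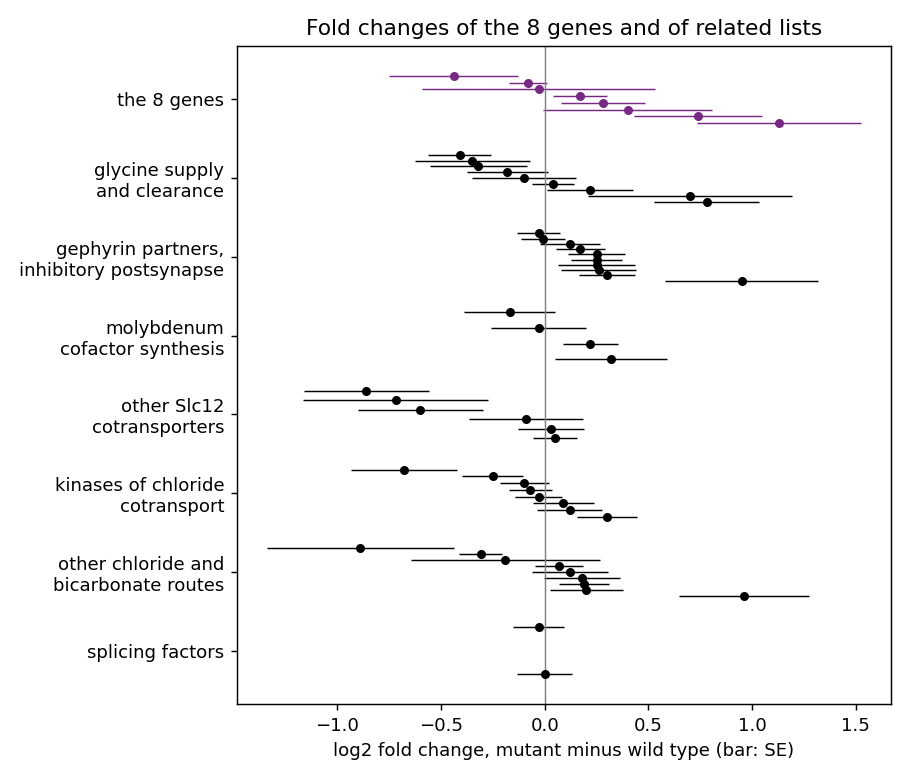
Log2 fold change, mutant minus wild type, with its SE, for the 8 genes (top) and for the tested genes of 7 related lists. None passed the adjusted threshold, and Glra2, at 1.13, lies farthest to the right.

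Upstream sequence is shown for Glra2 and Slc12a5, the pair with the largest fold changes, because the targeted genes encode DNA-binding factors. Windows are RefSeq promoters on GRCm38.p6 (the build mm10), cut to bases before the start site that lie in no GENCODE M21 exon, 5′ to 3′ on the gene's strand. Capitals mark matches to TGATNNAT, a motif bound by Pbx with Hox proteins, on either strand. Slc12a5 has a pair of RefSeq start sites, and both are given.
Glra2, chrX:165327394-165327643, minus strand: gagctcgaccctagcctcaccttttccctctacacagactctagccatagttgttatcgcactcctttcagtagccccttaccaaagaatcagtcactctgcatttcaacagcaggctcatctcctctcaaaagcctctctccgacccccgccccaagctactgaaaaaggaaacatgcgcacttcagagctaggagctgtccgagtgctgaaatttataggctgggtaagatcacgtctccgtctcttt
Slc12a5, first start, chr2:164960596-164960801, plus strand: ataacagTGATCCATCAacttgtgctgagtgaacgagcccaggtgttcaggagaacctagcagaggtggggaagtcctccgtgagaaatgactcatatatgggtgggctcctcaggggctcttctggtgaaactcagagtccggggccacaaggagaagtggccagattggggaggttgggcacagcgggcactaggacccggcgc
Slc12a5, second start, chr2:164967738-164967982, plus strand: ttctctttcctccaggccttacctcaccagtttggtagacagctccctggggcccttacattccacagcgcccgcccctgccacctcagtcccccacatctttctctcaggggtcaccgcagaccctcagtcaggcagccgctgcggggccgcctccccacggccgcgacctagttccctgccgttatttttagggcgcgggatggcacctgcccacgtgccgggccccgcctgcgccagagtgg
The window before the first Slc12a5 start held 2 overlapping matches, 1 on each strand, in 1 unbroken run of letters, and the other windows held none. Of 32851 promoters, 7.68% held the motif in the 250 bases before the start, and 6.59% in the first 206 of these bases, the stretch shown for the first Slc12a5 start. The Meis motif TGACAG was in none of the 3 windows and in 15.9% of all promoters. The E-box CANNTG, the motif class of Math1, was in 0 places before Glra2, in 1 before the first and in 2 before the second Slc12a5 start, and in 66.2% of all promoters.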

How the data were processed

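RNA from sorted cells of 8 libraries was sequenced after TotalScript library preparation from 2 ng of total RNA with 14 PCR cycles on 3 lanes, per the labels' protocols. The authors deposited 1 table of raw counts of reads for each Ensembl gene, with each gene's length in bases under the heading width. Per the submitters' processing notes, the build mm10 and bcl2fastq 1.8.4 were used. Which aligner and counter made the counts, and whether strand was kept, is not given in the sources used here. Column headings give the group but not the replicate number of a title.

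Counts were tested in R 4.3.3 with edgeR 4.0.16 (filterByExpr, TMM, robust quasi-likelihood F test, no covariate, Benjamini-Hochberg over all genes tested, threshold 0.05). SE is the absolute log2 fold change over the square root of F. DESeq2 1.42.0 and limma 3.58.1 served as alternatives. The biological coefficient of variation was 23.2%. The fit was tested on simulated data. Ratios within a library used counts per kilobase of width and an exact two-sided permutation test over 70 splits (scipy 1.17.1). No pair of libraries agreed within sampling noise (lowest chi-square per gene 16.5). Intervals at 95% cover counting error only and leave out variation between libraries. PCR copies are not independent molecules, so the intervals may be too narrow even for counting error. Symbols came from a table that matched 37607 of 39017 genes, and positions from GENCODE M21.

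The members, lists and alternatives were chosen with earlier results of these data known. Named were all 8 members, the targeted genes, from each pathway list the genes that passed or else those with the 2 smallest p, from the excitatory and microglia marker lists the gene that passed, and for each cotransporter the 3 genes of most similar pattern. Other markers were named after their values were seen, and marker lists that bear on no member are not described. List counts take in a gene whose own values are not reported here.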

Additional observations from a re-analysis of the deposited data

Results flagged for a closer look

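In each group of 4 libraries the gap between the most distant library and its nearest neighbour was compared with the whole range for 8 genes and 4 ratios, 24 groups in all, of which chance flags about 1 in 20. Glra3 stood at 0.935 CPM in wild type 6, from 24 counts, apart from the other 3 wild type libraries at 0.253 to 0.308 CPM. Glrb stood at 20.6 CPM in mutant 1, apart from 35.2 to 36.6 CPM in the other 3 mutant libraries. The ratio of Gphn to Glrb per kilobase stood at 2.64 in mutant 1, apart from 1.98 to 2.07 in the other 3, and it shares the Glrb value with the result before it.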

How the results depend on the processing

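Over 18 alternatives 0 of the 8 members passed, except Glra2 (0.93), the 1 member called without mutant 1, wild type 5 and wild type 6. Glra1, Glra2, Glra4, Glrb, Gphn, Slc12a2 and Slc12a5 kept their sign in every alternative that tested them. Glra3 turned to 0.08 with limma-voom, 0.37 with quality weights and 0.93 without those 3 libraries, and ranged from -0.41 to 0.60 with single libraries left out. Requiring 1 CPM or more in 4 libraries removed Glra3 and Glra4. Nova1 turned to 0.02 with quality weights and ranged from -0.11 to 0.05 with single libraries left out. Nova2 turned to 0.00 with DESeq2 and its size factors and 0.01 with no filter or with quality weights, and ranged from -0.09 to 0.07. Calls over all genes, 70 in the reported fit, were 214 with no filter, 489 with DESeq2, 233 with quality weights, 171 without the 3 libraries and 26 to 544 with single libraries left out (544 without mutant 1). The Glra2 share differed by 17.6 to 24.5 percentage points with single libraries left out (exact p = 0.0571 each, the smallest that 4 against 3 allow) and by 22.5 without the 3 (exact p = 0.2). The other ratios kept their sign. With libraries left out their exact p could not pass, because the smallest possible values are 0.0571 and 0.2. No paired analysis was possible because the column headings carry no replicate number of a title. With 6 to 42 counts per library, depth limits Glra3 and Glra4.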
